A study of Homo sapiens with 3 samples.

Results

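Transcript levels of 8 liver and endoderm transcription factor genes were followed in 3 RNA sequencing libraries. The genes were HNF4A, HNF4G, FOXA1, FOXA2, GATA4, GATA6, CEBPA and CEBPB, a fixed list matched by symbol to the 22827 Ensembl identifiers of the deposited table, and all 8 were found. The libraries came from cells labelled Hep3B, an established human hepatocellular carcinoma line, with a knockout of USP39 (USP39-KO), with a knockout of SIRT7 (SIRT7-KO) or from control cells, 1 library each. USP39 is a spliceosome-associated member of the ubiquitin-specific protease family, and SIRT7 is a nuclear sirtuin deacylase. The labels do not say how the knockouts were made, whether they are single clones, or how the control cells were treated. With 1 library per group no test was possible, and every interval given here is an exact 95% interval for counting error, which describes these libraries and not the conditions.

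HNF4, FOXA, GATA and C/EBP proteins form the network that sets up and holds the hepatocyte state. FOXA and GATA factors are known as pioneers that open chromatin in the endoderm before liver genes are switched on, HNF4 nuclear receptors then drive the genes of lipid transport, clotting and metabolism, and C/EBP factors act on metabolic and acute-phase genes. These factors also bind one another's regulatory regions.

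Library totals lay between 16151522 counts in SIRT7-KO and 19427940 in control. USP39 stood at 64.8 CPM (counts scaled to the effective library size) in USP39-KO against 94.1 CPM in control, or 0.688 times the control level (0.637 to 0.742). SIRT7 stood at 37.3 CPM in SIRT7-KO against 50.6 CPM in control, or 0.736 times (0.664 to 0.815), so each target was lower in its own library and neither passed the 2-fold rule. By that rule a gene is called higher or lower where its log2 ratio is at least 1 in size and the interval excludes 0, among 12726 measured genes with at least 10 reads in 1 or more libraries. Counts over a whole gene do not tell whether the remaining RNA could make protein. The defining liver markers went against the Hep3B label: of 14 hepatocyte and Hep3B markers, 7 had 0 reads in all 3 libraries, among them albumin (ALB), alpha-fetoprotein (AFP) and glypican 3 (GPC3), and 11 had under 10 reads in every library. Their summed level was 3.11 FPKM (the deposited level per gene length and library total) in USP39-KO, 3.6 FPKM in SIRT7-KO and 4.06 FPKM in control. Most of that sum was RBP4, at 2.99, 3.25 and 2.81 FPKM in the same order, with FGB at 0.0222, 0.0457 and 1.05 FPKM. In this table the ribosomal protein genes RPL7A and RPS18 were also listed at 0 reads in all 3 libraries, so a 0 here does not by itself show that a gene was silent. A fall in RNA per cell and a fall in the share of cells with the RNA cannot be told apart in bulk libraries.

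Of the 8 genes, 5 have a start in the RefSeq promoter table. The windows of HNF4A and FOXA1 are shown because they held matches to the recognition letters of factors of this network, and those of GATA6, CEBPA and CEBPB held none. HNF4A has a distal and a proximal start in that table, 45.5 kb apart, and the proximal one is known from adult hepatocytes. Counts over the whole gene do not tell which was used. The sequences are from RefSeq on GRCh38.p14, on the plus strand for HNF4A and the minus strand for FOXA1. They end just before the start for HNF4A and where an annotated exon begins for FOXA1. Capitals mark matches to any of 4 short motifs on either strand.
HNF4A distal start, chr20:44355449-44355698: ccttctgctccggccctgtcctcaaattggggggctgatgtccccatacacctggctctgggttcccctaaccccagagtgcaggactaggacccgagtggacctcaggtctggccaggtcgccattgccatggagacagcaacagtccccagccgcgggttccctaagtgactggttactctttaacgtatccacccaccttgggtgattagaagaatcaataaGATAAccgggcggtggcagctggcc
HNF4A proximal start, chr20:44400989-44401238: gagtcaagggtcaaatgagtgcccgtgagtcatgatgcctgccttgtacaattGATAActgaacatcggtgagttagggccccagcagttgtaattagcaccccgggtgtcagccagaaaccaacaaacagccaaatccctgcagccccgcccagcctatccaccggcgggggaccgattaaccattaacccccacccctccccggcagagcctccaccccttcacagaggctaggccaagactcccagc
FOXA1 start, chr14:37595349-37595499: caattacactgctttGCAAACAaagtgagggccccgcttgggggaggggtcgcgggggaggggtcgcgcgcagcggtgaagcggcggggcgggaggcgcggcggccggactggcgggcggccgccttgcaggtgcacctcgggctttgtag

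The letters searched were GATAA for GATA factors, TGTTTNC for forkhead factors, TTGCNNAA for C/EBP and CAAAGNNCA for HNF4. Over the 250 bases before each start, they occur in 20.4%, 15.5%, 9.05% and 4.44% of all 35116 windows of the same length, in that order. The distal HNF4A window held 1 GATA match, at positions -25 to -21 from the start. The proximal window held 1 GATA match, at -197 to -193. No match overlaps another. The FOXA1 window held 1 forkhead match, at -235 to -229, read on the strand opposite to the printed one. A match to such letters is a description and is not a measured binding site.

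HNF4A (ENSG00000101076; chromosome 20, 44355700 to 44434596, plus strand, positions from GENCODE 29 on GRCh38) encodes the nuclear receptor that is a master regulator of hepatocytes. It had 29 reads in USP39-KO, 7 in SIRT7-KO and 113 in control, or 1.76, 0.429 and 5.82 CPM. The control library was the highest, SIRT7-KO the lowest, and the counting intervals of the 3 levels did not overlap. HNF4A was 3.3-fold lower in USP39-KO than in control (interval 2.18 to 5.15) and 13.6-fold lower in SIRT7-KO than in control (6.37 to 34.5). Ranked from the lowest log2 ratio, it was gene 58 of 12726 measured genes in SIRT7-KO against control and gene 219 in USP39-KO against control.

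HNF4G (ENSG00000164749; 75407914 to 75566843, plus strand, on chromosome 8) encodes the second HNF4 receptor, best known from intestine and kidney. It had 123 reads in USP39-KO, 5 in SIRT7-KO and 57 in control, or 7.47, 0.306 and 2.93 CPM. Unlike HNF4A it was highest in USP39-KO, and again the 3 intervals stood apart. HNF4G was 2.55-fold higher in USP39-KO than in control (1.85 to 3.55) and 9.58-fold lower in SIRT7-KO than in control (3.87 to 30.6). Between the knockouts it was 24.4-fold higher in USP39-KO than in SIRT7-KO (10.2 to 76.5), the log2 ratio of 4.48 being number 24 from the top among the 12726 genes.

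The 2 HNF4 receptors therefore stood in a different order in different libraries when compared per length. In USP39-KO, HNF4G had 1.54 FPKM and HNF4A 0.314 FPKM, a ratio of 4.91 (3.25 to 7.63). In control, HNF4G had 0.61 FPKM and HNF4A 1.05 FPKM, a ratio of 0.584 (0.417 to 0.809). In SIRT7-KO both were under 0.1 FPKM, at 0.0644 FPKM for HNF4G and 0.0779 FPKM for HNF4A, and their order could not be told at this depth (ratio 0.826, 0.207 to 3.02).

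**Figure D1:**
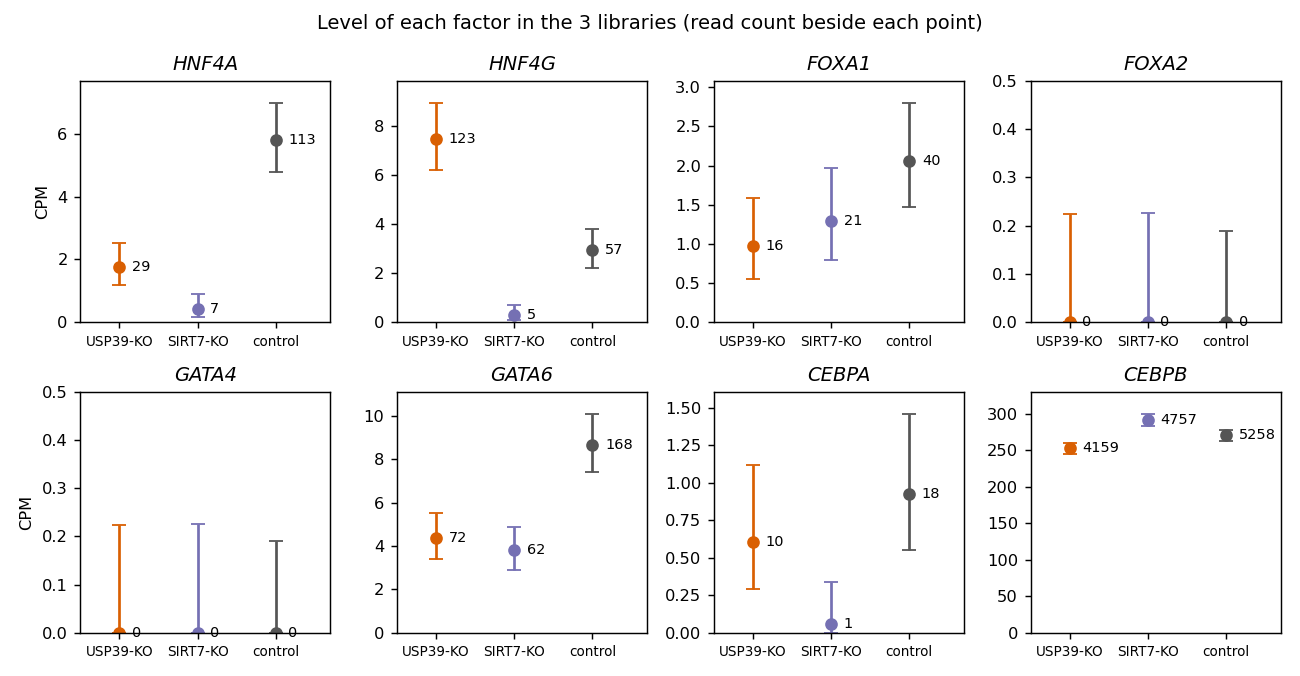
Level of each of the 8 factors in CPM in USP39-KO, SIRT7-KO and control, with exact 95% Poisson intervals for counting error and the read count beside each point. HNF4A, GATA6 and CEBPA are highest in control, HNF4G is highest in USP39-KO, CEBPB is at 253, 291 and 271 CPM, and FOXA2 and GATA4 have 0 reads throughout.

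FOXA1 (ENSG00000129514; chromosome 14, 37589984 to 37596059, minus strand) encodes a forkhead pioneer factor shared by liver, lung and hormone-responsive epithelia. It had 16 reads in USP39-KO, 21 in SIRT7-KO and 40 in control, or 0.972, 1.29 and 2.06 CPM. Both knockout libraries were below control, but the counting intervals of all 3 levels overlapped. FOXA1 was 2.12-fold lower in USP39-KO than in control (1.16 to 4.05), an interval that excludes 1. In SIRT7-KO the ratio to control was 0.625 (0.35 to 1.09), which counting error allows to be 1. TTC6 overlaps FOXA1 on the opposite strand and had only 2, 3 and 2 reads in USP39-KO, SIRT7-KO and control.

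FOXA2 (ENSG00000125798), which drives definitive endoderm and liver bud formation with FOXA1, had 0 reads in every library. Taken as a sampled count, that 0 gave exact 95% intervals reaching 0.224 CPM in USP39-KO, 0.226 CPM in SIRT7-KO and 0.19 CPM in control. The one-sided limit of 3 reads that a count of 0 allows is 0.182, 0.184 and 0.154 CPM in the same libraries. RPL7A and RPS18 were listed at 0 reads too, so the 0 of FOXA2 may not be a sampled count. In that case these limits do not bound its level. FOXA3, the third family member and the one most tied to differentiated liver, had 1 read in USP39-KO and 0 in SIRT7-KO and control. FOXA1 was thus the only FOXA gene with 10 or more reads in any of the 3 libraries.

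GATA4 (ENSG00000136574), a factor of heart, gonad and early liver, was likewise listed at 0 reads in all 3 libraries. GATA6 (ENSG00000141448; chromosome 18, 22169443 to 22202528, plus strand), its close relative in extra-embryonic and definitive endoderm, had 72 reads in USP39-KO, 62 in SIRT7-KO and 168 in control. These were 4.37, 3.8 and 8.65 CPM, with the knockouts overlapping each other and both below control. GATA6 was 2.28-fold lower in SIRT7-KO than in control (1.69 to 3.1). In USP39-KO it was 1.98-fold lower than in control (1.49 to 2.64), just short of the 2-fold rule, and the ratio of USP39-KO to SIRT7-KO was 1.15 (0.809 to 1.64).

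Another GATA gene, GATA2, known from blood, endothelium and trophoblast, was far more abundant per length. GATA2 had 52.2 FPKM in USP39-KO, 42.1 FPKM in SIRT7-KO and 35 FPKM in control, and GATA6 had 1.1, 0.973 and 2.19 FPKM. The per-length ratio of GATA2 to GATA6 was 47.5 in USP39-KO (37.7 to 60.9) and 43.2 in SIRT7-KO (33.6 to 56.5), against 16 in control (13.7 to 18.8). GATA2 itself was 1.51-fold higher in USP39-KO than in control, with a log2 ratio of 0.59 (0.52 to 0.66), and did not reach the 2-fold rule. GATA3 had 9, 8 and 10 reads in USP39-KO, SIRT7-KO and control, and GATA1 and GATA5 had 0 reads in all 3.

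CEBPA (ENSG00000245848; chromosome 19, 33299934 to 33302564, minus strand) encodes C/EBPalpha, which promotes differentiation and restrains division in hepatocytes and myeloid cells. It had 10 reads in USP39-KO, 1 in SIRT7-KO and 18 in control, or 0.608, 0.0613 and 0.926 CPM. SIRT7-KO was the lowest library and stood apart from control, while USP39-KO overlapped both. The ratio of USP39-KO to control was 0.656 (0.27 to 1.5). CEBPA was 15.1-fold lower in SIRT7-KO than in control, but with 1 read the interval ran from 2.39 to 630.

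CEBPB (ENSG00000172216; chromosome 20, 50190734 to 50192689, plus strand) encodes C/EBPbeta, the family member induced by cytokines and stress. It had 4159 reads in USP39-KO, 4757 in SIRT7-KO and 5258 in control, or 253, 291 and 271 CPM. Its FPKM of 136, 160 and 147 placed it at rank 183, 141 and 157 of all genes in USP39-KO, SIRT7-KO and control. CEBPB stood at 0.934 times control in USP39-KO (0.896 to 0.973) and at 1.08 times control in SIRT7-KO (1.04 to 1.12), differences beyond counting error but far under the 2-fold rule.

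The other genes listed with the C/EBP family were also read at similar levels in the 3 libraries. CEBPD, another acute-phase factor, had 26.3 FPKM in USP39-KO, 33.5 FPKM in SIRT7-KO and 24.7 FPKM in control. CEBPG, a partner that lacks an activation domain, had 26, 18.1 and 24.7 FPKM in the same libraries. CEBPZ, listed for its name and not of the C/EBP protein family, had 25.8, 25.8 and 25.4 FPKM. DDIT3, the stress-induced C/EBP homologue CHOP, had 5.21, 4.26 and 3.85 FPKM, and CEBPE, of late granulocytes, had 0, 0 and 2 reads. Of 10 genes listed with the FOXA, GATA and C/EBP families outside the 8, CEBPZ included, 6 were measured. Of these, 0 were called higher or lower in any of the 3 comparisons. Over all measured genes, 1.49% to 5.03% were called in a given direction and comparison.

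**Figure D2:**
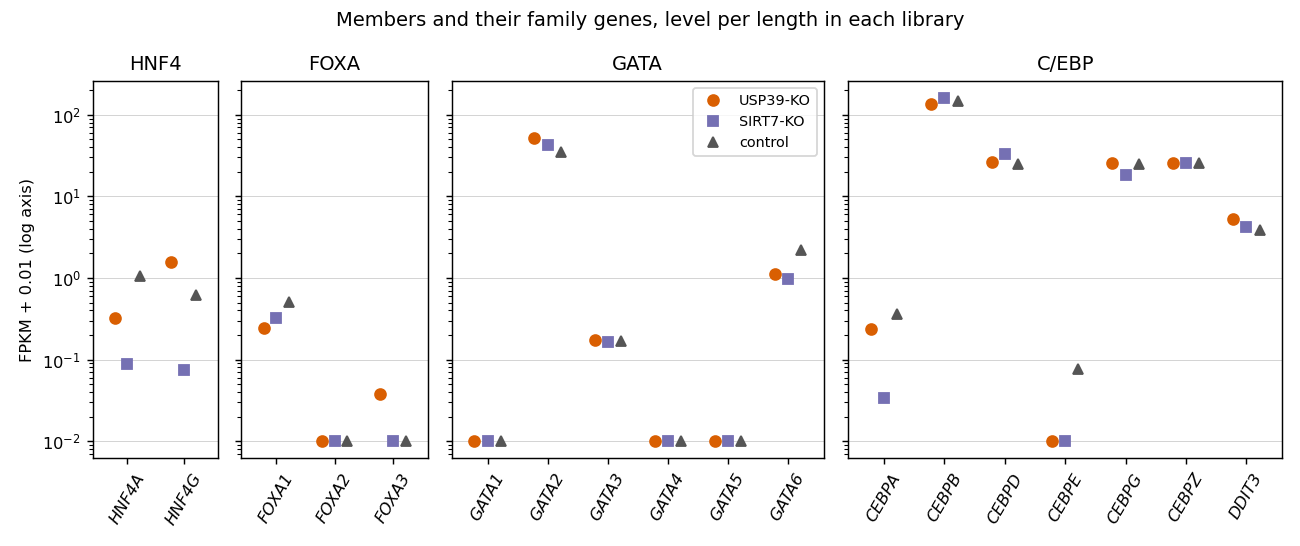
Level per length (FPKM plus 0.01, log axis) of the genes listed with the HNF4, FOXA, GATA and C/EBP families in USP39-KO, SIRT7-KO and control, 1 point per library, with genes at 0 reads drawn at 0.01. CEBPB at 136, 160 and 147 FPKM and GATA2 at 52.2, 42.1 and 35 FPKM lead their families, and HNF4A, HNF4G, FOXA1 and CEBPA lie below 2 FPKM in every library.

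The members were set against the background of all 12726 measured genes by the 2-fold rule. In USP39-KO against control, 2 of the 8 members were called lower (HNF4A and FOXA1) and 1 higher (HNF4G), where 3.37% of all genes were called lower and 1.49% higher. In SIRT7-KO against control, 4 of the 8 were called lower (HNF4A, HNF4G, GATA6 and CEBPA) and 0 higher, where 4.05% of all genes were called lower and 3.02% higher. In USP39-KO against SIRT7-KO, 3 of the 8 were called higher (HNF4A, HNF4G and CEBPA) and 0 lower, where 3.51% of all genes were called higher and 5.03% lower.

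The called members had few reads, and such genes are called more often. Among 3883 genes with a mean count of 5 to under 200, a range chosen after the values were seen, 9.66% were called lower and 3.97% higher in USP39-KO against control. In the same range 10.5% were lower and 7.8% higher in SIRT7-KO against control, and 8.01% were higher and 12.4% lower in USP39-KO against SIRT7-KO. The median log2 ratio of the 6 measured members was -0.78 in USP39-KO against control, -2.16 in SIRT7-KO against control and 1.08 in USP39-KO against SIRT7-KO, beside medians of 0.00, -0.01 and 0.00 over all genes. HNF4A, HNF4G and CEBPA passed the count filter through USP39-KO and control, having under 10 reads in SIRT7-KO, and FOXA2 and GATA4 did not pass it, so these medians leave out 2 of the 8. The knockouts were compared with the same control library, and a high or low value there enters both ratios.

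**Figure D3:**
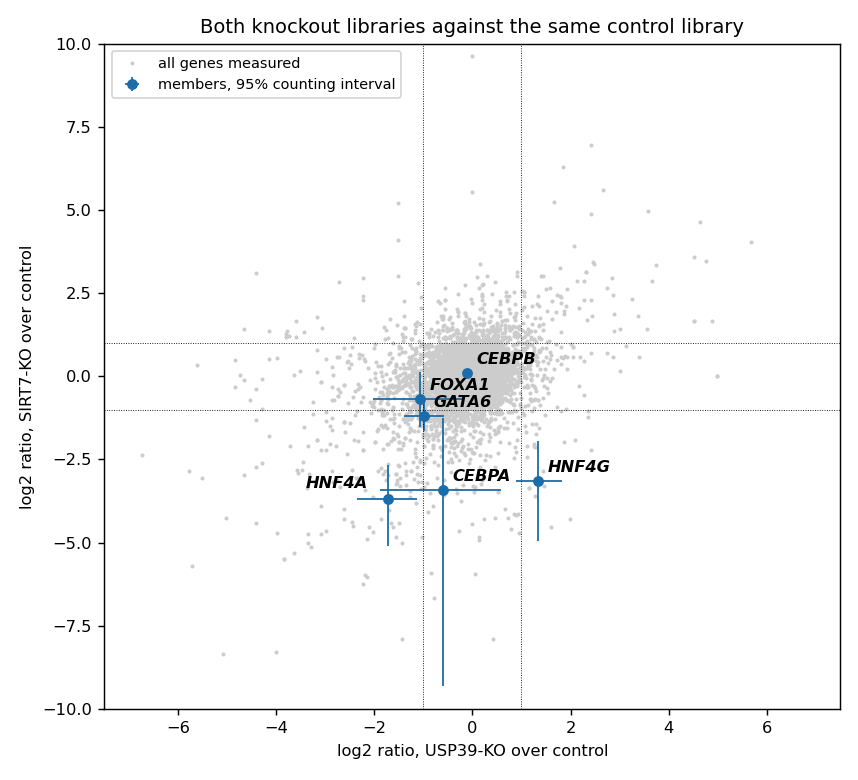
Log2 ratio of USP39-KO over control (horizontal) and of SIRT7-KO over control (vertical) for 12726 measured genes in grey and the 6 measured members in blue with 95% counting intervals, with dotted lines at 2-fold. HNF4A lies low on both axes, HNF4G lies high in USP39-KO (1.34) and low in SIRT7-KO (-3.15), and CEBPB lies near 0 on both.

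For each member called in either knockout, the 3 genes with the closest pair of log2 ratios were found among 10181 genes with at least 100 reads in 1 or more libraries. Distances are in log2 units over 2 ratios that share the control. Nearest to HNF4A (-1.71 in USP39-KO, -3.68 in SIRT7-KO) were the ubiquitin ligase TRIM2 (distance 0.08), the zinc finger factor MECOM (0.43) and the collagen COL25A1 (0.50). Nearest to HNF4G were IGFN1 (0.18), the fatty acid activating enzyme ACSL1 (0.30) and the neutral amino acid transporter SLC6A19 (1.11). ACSL1 had 878 reads in USP39-KO, 44 in SIRT7-KO and 384 in control, the order of HNF4G at a higher level. Nearest to FOXA1 were PTPRB (0.11), MUC16 (0.13) and RASGEF1A (0.15), and nearest to GATA6 were the laminin LAMA3 (0.11), CADM4 (0.14) and NIBAN1 (0.16). CEBPA was nearest to PLBD1 (0.26), the protease inhibitor SPINK5 (0.29) and PNMA2 (0.31). The distances take no account of counting error, which is wider for members with few reads. The log2 interval of CEBPA in SIRT7-KO against control was -9.30 to -1.26, and that of FOXA1 in USP39-KO against control -2.02 to -0.21. The search also left out genes as shallow as FOXA1 (at most 40 reads) and CEBPA (at most 18).

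Other factors of the liver network were a list of 20 genes of which 19 were in the table and 13 measured. They were called higher in 1 case and lower in 0 in USP39-KO against control, and higher in 1 and lower in 3 in SIRT7-KO against control. The shares of all measured genes against control were 3.37% lower and 1.49% higher in USP39-KO, and 4.05% and 3.02% in SIRT7-KO. NR1I3, the xenobiotic receptor CAR, was the gene called higher in both knockouts, with 13 reads in USP39-KO, 17 in SIRT7-KO and 4 in control. NR1I3 passed the filter of 10 reads only through the knockout libraries, and both of its ratios share the 4 control reads. In SIRT7-KO, ONECUT3 was 6.44-fold lower than control with 3 reads against 23, the acute-phase regulator CREB3L3 2.29-fold lower, and NFIB 2.01-fold lower with 126 reads against 301. NFIB lay on the edge of the 2-fold rule and was not called with library totals, with DESeq2 size factors or with a prior of 2 counts. With at least 100 reads required, NFIB was the 1 gene of the list called lower in SIRT7-KO and 0 were higher in either knockout. ATF5, a stress-related bZIP factor of hepatocytes, was called between the knockouts only, at 177 reads in USP39-KO and 71 in SIRT7-KO. TBX3, which acts in liver bud outgrowth, led the list at 40.3 FPKM in USP39-KO, 24.3 FPKM in SIRT7-KO and 35 FPKM in control. ONECUT1, PROX1, NR1H4 and NR0B2 were listed at 0 reads in all 3. Between the knockouts ONECUT3 and ATF5 were higher in USP39-KO than in SIRT7-KO and 0 genes were lower. There 3.51% of all measured genes were higher and 5.03% lower. The list's median log2 ratio was -0.07 in USP39-KO and 0.09 in SIRT7-KO against control.

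Of 20 other factors of endoderm and gut-tube organs, 19 were in the table and 9 measured, and 3 were called lower and 0 higher in USP39-KO against control. Over all measured genes 3.37% were lower and 1.49% higher there. In SIRT7-KO against control 3 were called lower and 1 higher, beside 4.05% and 3.02% of all measured genes. The median log2 ratio of the list was -0.72 in USP39-KO and -0.80 in SIRT7-KO. SOX17, the endoderm master factor, had 5 reads in USP39-KO and 3 in SIRT7-KO against 41 in control, 6.95-fold and 11.5-fold lower than control. KLF5, an epithelial zinc finger factor and the most abundant of the list, had 1681 reads in USP39-KO and 1060 in SIRT7-KO against 5280 in control. That is 2.66-fold lower in USP39-KO than in control (log2 ratio -1.41, -1.49 to -1.33) and 4.18-fold lower in SIRT7-KO than in control (-2.06, -2.16 to -1.97). NKX2-1, of lung and thyroid, had 2 reads in SIRT7-KO against 34 in control, and 19 in USP39-KO. EOMES, which acts upstream of SOX17 in the embryo, was higher in SIRT7-KO, with 26 reads against 12 in control and 10 in USP39-KO. FOXP2 was called lower in USP39-KO with 5 reads against 17 in control, and SOX7 and SOX9 were called between the knockouts only. SOX9, a bile duct and progenitor factor, had 89 reads in USP39-KO and 237 in SIRT7-KO, and SOX7 had 22 and 7. Of this list 2 genes were called higher (NKX2-1 and SOX7) and 2 lower (EOMES and SOX9) in USP39-KO against SIRT7-KO, beside 3.51% and 5.03% of all measured genes. SOX17 and FOXP2 passed the filter of 10 reads only through control, and with at least 100 reads required KLF5 was the 1 gene lower in each knockout against control and 0 were higher. GSC, OTX2, CDX1, CDX2, PDX1, NKX6-1, PTF1A and SOX2 had 0 reads in all 3 libraries.

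**Figure D4:**
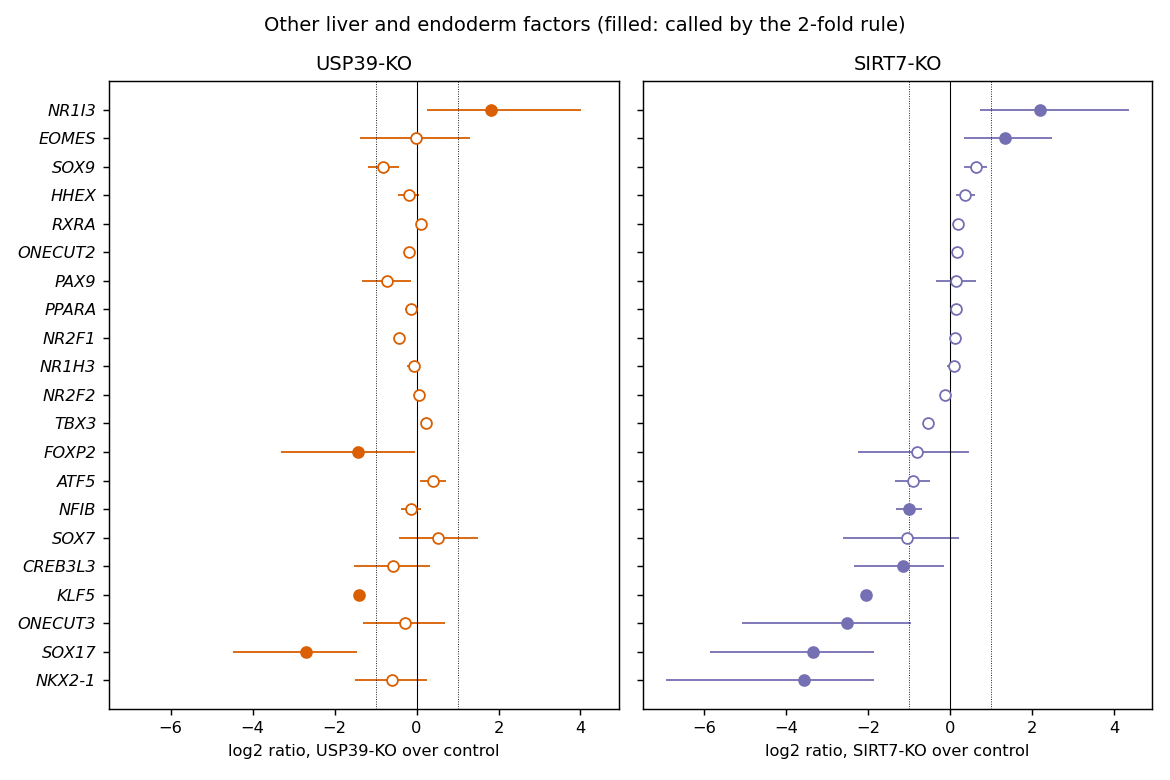
Log2 ratios over control with 95% counting intervals for all but 1 of the 22 measured genes of the liver network and endoderm lists, USP39-KO on the left and SIRT7-KO on the right, filled where called by the 2-fold rule. KLF5 (-1.41 and -2.06) and SOX17 (-2.69 and -3.34) are lower in both, while NR1I3 is higher in both. NR1I3 passed the filter of 10 reads only through the knockouts, and SOX17 only through control.

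Cofactors and regulators of these factors, 27 genes that were all measured, were called in 0 cases in USP39-KO against control and lower in 3 cases in SIRT7-KO against control. Over all measured genes 3.37% were lower in USP39-KO and 4.05% in SIRT7-KO. PPARGC1A, the coactivator PGC-1alpha that works with HNF4A on gluconeogenic genes, had 564 reads in USP39-KO, 331 in SIRT7-KO and 849 in control, and was 2.15-fold lower in SIRT7-KO than in control. The Tribbles genes, whose proteins direct C/EBPalpha to degradation or act in stress, differed in the order of the libraries. TRIB3 had 2068 reads in USP39-KO, 748 in SIRT7-KO and 2126 in control, 2.39-fold lower in SIRT7-KO than in control. TRIB2 had 15 reads in USP39-KO, 0 in SIRT7-KO and 9 in control, at least 2.52-fold lower in SIRT7-KO than in control against a floor of 3 reads in the SIRT7-KO library. TRIB1 was at 28.4 CPM in USP39-KO and 40.4 CPM in SIRT7-KO against 28.3 CPM in control, and was not called. ATF4 was the most abundant of the list, at 161, 136 and 146 FPKM in USP39-KO, SIRT7-KO and control.

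Genes known as targets of the factors were read next, most of which had few or no reads. Their calls stand beside the shares of all measured genes. Against control these were 3.37% lower and 1.49% higher in USP39-KO, and 4.05% and 3.02% in SIRT7-KO. Of 28 HNF4A targets, 24 had under 10 reads in every library and 13 had none in any, including APOB, APOC3, TTR and MTTP. The 4 measured ones included PPARA, at 3.55 FPKM in USP39-KO, 4.44 FPKM in SIRT7-KO and 3.95 FPKM in control, and 0 of the 4 were called lower, while NR1I3 was called higher as above. Of 15 FOXA targets, 13 had under 10 reads everywhere. IGFBP1, an insulin-like growth factor binding protein, had 16 reads in USP39-KO and 40 in SIRT7-KO against 98 in control, called lower in both. The urea cycle enzyme CPS1 had 128 FPKM in USP39-KO, 133 FPKM in SIRT7-KO and 131 FPKM in control.

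Of 18 GATA4 and GATA6 targets, 8 were measured, with 4 lower and 1 higher in USP39-KO against control and 4 lower and 0 higher in SIRT7-KO against control. HNF4A and SOX17, given above, are 2 of the 4 lower in each, with the inhibin subunit INHA (6 reads in USP39-KO and 3 in SIRT7-KO against 27 in control) and the cyclin CCND2 (6 and 6 against 19). The laminin LAMA1 was the higher one, with 3899 reads in USP39-KO against 2017 in control, 2.28-fold, and had 1049 in SIRT7-KO. DAB2, an endocytic adaptor of extra-embryonic endoderm, had 46.6, 31.9 and 39 FPKM in USP39-KO, SIRT7-KO and control. It was the most abundant of these targets in USP39-KO and control, while in SIRT7-KO the cell cycle kinase CDK4 was, at 33.9 FPKM. With at least 100 reads required in 1 or more libraries, 1 of the 4 (HNF4A) was lower in each knockout against control. INHA, CCND2 and SOX17 were then not measured, having passed the filter of 10 reads only through control. HNF4A in turn reached 100 reads only in control. Of 28 C/EBP targets, 8 were measured, 2 lower in USP39-KO and 1 lower in SIRT7-KO against control. Complement C3 had 1735 reads in USP39-KO, 4977 in SIRT7-KO and 5825 in control, CXCL8 had 3, 6 and 15, and IL6 had 75, 66 and 163. The lower ones were C3 and CXCL8 in USP39-KO and IL6 in SIRT7-KO, and CXCL8 passed the filter of 10 reads only through control.

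Markers of other cell types were read beside these values, with the shares of called genes given above as background. Of 5 bile duct markers, KRT7 led at 138 FPKM in USP39-KO, 152 FPKM in SIRT7-KO and 151 FPKM in control, while KRT19 had 0 reads in all 3 libraries, and EPCAM was called lower in SIRT7-KO with 7 reads against 37 in control. Of 4 Mullerian epithelium markers 3 were measured, with a summed level of 75.4 FPKM in USP39-KO and 88.4 FPKM in SIRT7-KO against 110 FPKM in control and with WT1 at 0 reads. Most of that sum was MSLN, at 74.5, 87.2 and 108 FPKM in USP39-KO, SIRT7-KO and control. In the same order PAX8 was at 0.247, 0.153 and 0.317 FPKM and MUC16 at 0.641, 0.975 and 1.41 FPKM. MUC16 was called lower in USP39-KO and PAX8 in SIRT7-KO. Of 6 fibroblast markers 3 were measured and 0 called, with summed levels of 14.5, 12.6 and 12.6 FPKM in USP39-KO, SIRT7-KO and control and with COL1A2 at 0 reads. Most of these sums was COL1A1, at 12.7, 9.6 and 10.4 FPKM. The lung markers, mostly NKX2-1, summed to 0.38, 0.0392 and 0.704 FPKM in the same order, and intestine and endothelium markers to at most 0.107 FPKM in any library. The pancreas markers were all at 0 reads, and among leukocyte markers PTPRC and CD68 were at 0 reads. Among the hepatocyte markers FGB, a fibrinogen chain, had 1 read in USP39-KO and 2 in SIRT7-KO against 55 in control. FGG, another chain, had 0 and 16 against 2, called higher in SIRT7-KO. FGB passed the filter of 10 reads only through control, and FGG only through SIRT7-KO. The 13 mitochondrial protein genes took 5.29% of counts in USP39-KO and 3.96% in SIRT7-KO against 4.85% in control. The part of these differences in the values of the 8 factors was not tested.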

How the data were processed

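RNA from cells labelled Hep3B was extracted with Trizol and prepared with Illumina's TruSeq kit, according to the labels, giving 1 library each for USP39-KO, SIRT7-KO and control. The authors deposited 1 table with raw read counts, FPKM and a gene length. The deposited FPKM equal the counts divided by length and library total, with a largest relative difference of 1.41e-07 over the 14361, 14616 and 14711 genes with reads in USP39-KO, SIRT7-KO and control, and served only to compare genes per length. No source used here names the aligner, counting program, strand setting, annotation or build, so reads of overlapping antisense genes may be included.

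TMM factors (edgeR 4.0.16: 0.9897, 1.0104 and 1.0000) gave effective library sizes, with totals of 16630636, 16151522 and 19427940 counts in USP39-KO, SIRT7-KO and control. Log2 ratios used a prior of 0.5 counts. Intervals are exact conditional binomial (Clopper-Pearson) and levels exact Poisson, at 95%, and cover counting error only, since PCR copies were not told apart by molecular identifiers. No dispersion can be estimated from 1 library per group, so no model was fitted. The ratio step was tested on simulated Poisson libraries.

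Symbols came from a gene name table (19113 identifiers) and GENCODE 29. Of 190 listed genes, 179 were found, and the 10 noncoding neighbours of the members were among those not matched. A few listed genes are not reported here. Named genes are the 8 members, every listed gene called in a comparison, the most abundant gene per list, factors at 0 reads, and nearest genes by ratio. The members and lists were chosen with earlier results of these data known. Promoter sequences are from RefSeq (GRCh38.p14), where 5 of 8 members matched. Alternatives were other size factors (DESeq2 1.42.0 among them), priors, count filters and size rules.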

Additional observations from a re-analysis of the deposited data

How the results depend on the processing

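Under 3 other scalings and 2 other priors, the log2 ratios of the 6 measured members stayed inside their counting intervals and no called member changed sign. HNF4A ranged from -1.72 to -1.66 in USP39-KO and from -3.72 to -3.45 in SIRT7-KO against control, and CEBPA in SIRT7-KO from -3.64 to -2.58. Of the alternative counts of called members, 50 stayed within 1.5 times the count given and 4 did not. With at least 100 reads required in 1 or more libraries, 1 member was lower in USP39-KO against control (HNF4A), since FOXA1 was then not measured. HNF4A passed that filter only through control, the library where it was highest. With the whole interval required to lie beyond 2-fold, 1 was lower and 0 higher in USP39-KO against control, and 1 was higher in USP39-KO against SIRT7-KO (HNF4G), because the intervals of the others reach inside 2-fold. For the other gene lists, 18 counts of called genes were smaller with the filter of 100 reads and 16 with the whole interval beyond 2-fold, while 7 were larger with a 1.5-fold rule and 3 with no filter on low counts. Among listed genes measured outside the marker lists, NFIB in SIRT7-KO against control was the 1 call that other scalings and priors changed, with a log2 ratio of -0.987 with library totals, -0.993 with DESeq2 size factors and -0.994 with a prior of 2 counts. Leaving out a replicate could not be run with 1 library per group. No paired analysis was possible because each group has 1 library. Depth limits the members other than CEBPB, which have at most 168 reads in a library.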

Other observations

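The surroundings of the members were read after the values were seen, over measured genes within 2 Mb on either side. Over all measured genes 3.37% were called lower and 1.49% higher in USP39-KO, and 4.05% and 3.02% in SIRT7-KO, against control. In USP39-KO against SIRT7-KO, 3.51% were higher and 5.03% lower. Near HNF4G, 0 of 9 genes were called in any of the 3 comparisons, with medians of -0.02 in USP39-KO and -0.03 in SIRT7-KO against control. Near HNF4A, 2 of 45 genes were lower and 1 higher in each knockout against control, counts near those shares. RIMS4, 0.317 Mb from HNF4A, had 513 reads in USP39-KO, 116 in SIRT7-KO and 298 in control, the same order as HNF4G.

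Near FOXA1, 3 of 16 genes were called lower in each knockout against control, and the medians were -0.23 in USP39-KO and -0.18 in SIRT7-KO. The somatostatin receptor gene SSTR1 had 26 reads in USP39-KO and 61 in SIRT7-KO against 163 in control, and SLC25A21-AS1 had 1 and 0 against 17. SLC25A21-AS1 passed the filter of 10 reads only through control. The homeobox genes NKX2-1 and NKX2-8 lie 1.07 and 1.01 Mb from FOXA1, and NKX2-8 had 2 reads in USP39-KO and 10 in SIRT7-KO against 20 in control.

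Of 17 genes near GATA6, 2 were called lower and 0 higher in each knockout against control. LAMA3, the gene nearest to GATA6 by its pair of ratios, was among them in both and lies 1.49 Mb from GATA6. It had 69 reads in USP39-KO and 63 in SIRT7-KO against 174 in control. CABLES1, 0.932 Mb from GATA6, had 648 reads in USP39-KO, 291 in SIRT7-KO and 407 in control, an order unlike that of GATA6. Around CEBPA, 2 of 32 genes were lower and 0 higher in USP39-KO against control, and 1 lower and 1 higher in SIRT7-KO. Around CEBPB, 1 of 24 genes was lower and 0 higher in USP39-KO against control, and 0 lower and 1 higher in SIRT7-KO.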
